A study of Homo sapiens with 4 samples.

Results

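The 10 genes described here encode ligands, inhibitory SMADs and targets of the transforming growth factor beta (TGF beta) and bone morphogenetic protein (BMP) pathway: the ligands BMP2, BMP4, TGFB1, TGFB2 and INHBA, the inhibitory SMADs SMAD6 and SMAD7, and the targets ID1, ID2 and ID3. They were taken by name, as every gene probe whose gene name on the array was one of these symbols, which gave 11 probes on 29 spots, for 10 of the 27274 gene names on the array. All 10 genes were on the array, and all their probes were taken. The genes themselves were chosen with earlier results of these data known, and a gene's value is that of its brightest probe. The study asked how atorvastatin (ATO), a cholesterol-lowering statin, changes the transcripts of LNCaP and of PC3, established human prostate cancer cell lines. LNCaP is androgen-responsive and came from a lymph node metastasis, whereas PC3 grows independently of androgen and came from a bone metastasis. There were 4 groups: LNCaP without treatment, LNCaP exposed to 10 µM ATO for 24 h, PC3 without treatment, and PC3 exposed to 10 µM ATO for 24 h. Each group was 1 sample on 1 single-colour Agilent array, all on 1 slide and in 1 scan. There were therefore no replicates, and a ratio between a pair of arrays compares those arrays and cannot separate treatment or line from the culture and the array.

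TGF beta, activin and BMP ligands bind pairs of receptor kinases at the cell surface, which phosphorylate SMAD proteins that then enter the nucleus with SMAD4 and regulate transcription. The TGF beta and activin branch uses SMAD2 and SMAD3, and the BMP branch uses SMAD1, SMAD5 and SMAD9. SMAD6 and SMAD7 are induced by the pathway and inhibit it in turn, and the ID genes are long-known direct targets of the BMP branch. In prostate cancer, the pathway is known for restraining growth in early disease and for its part in bone metastasis.

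Probes on this array are 60 bases long. The probes of the ligands BMP4, TGFB1 and INHBA and of the target ID3 read coding sequence and are shown because the values below are measurements of these stretches. The capitals in INHBA mark the stop codon, which follows 18 codons of the reading frame. No part of the other 3 is marked.
BMP4: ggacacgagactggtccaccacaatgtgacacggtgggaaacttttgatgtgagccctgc
TGFB1: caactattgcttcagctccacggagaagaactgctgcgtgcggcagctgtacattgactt
INHBA: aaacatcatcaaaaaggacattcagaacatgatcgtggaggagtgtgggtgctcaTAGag
ID3: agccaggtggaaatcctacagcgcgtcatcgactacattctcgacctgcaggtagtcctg
On the hg18 build of the array design, the BMP4 probe lies at chr14:53487068-53487127, the INHBA probe at chr7:41695771-41695830 and the ID3 probe at chr1:23758253-23758312, all on the minus strand. The 60 bases of the TGFB1 probe extend over 9661 bases of the genome, chr19:46529982-46539642 on the minus strand, so this probe crosses at least 1 intron and reads spliced RNA. The TGFB1 and INHBA probes were each printed on 10 spots and thus carry an error over spots. ID2 had 2 probes with 1 spot each, and every other gene had 1 probe with 1 spot.

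Values are processed intensities, in scanner units after background subtraction by the scanner software. For ratios, each array was scaled to the 75th percentile of its gene spots, which lay between 650 and 764 units. A probe counted as measured on an array where the software found it well above background, as held for 48.5% to 52.9% of gene spots, and no gene spot was saturated. Where a probe was well above background on only 1 of a pair of arrays, only a bound on the ratio is given. The error given with a log2 ratio of a probe with 1 spot is the software's own error estimate for both arrays. Over all probes printed on 10 spots, the median SD of the log2 ratio between spots was 0.11 in LNCaP and 0.12 in PC3, which covers spot-to-spot error on an array and no biological spread. The androgen-regulated LNCaP marker KLK3 (prostate-specific antigen) read 65987 and 65646 units in LNCaP control and ATO cells. KLK3 and KLK2 lacked a signal well above background in PC3, and the PC3 markers CAV1 and CD44 lacked one in LNCaP, as the labels call for. The sterol-regulated genes HMGCS1, INSIG1 and IDI1, which cells raise when sterol falls, had higher values in the ATO array of both lines, by log2 ratios of 0.93 to 1.85 in LNCaP and 0.37 to 1.14 in PC3.

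In PC3 cells, 4 of the 10 genes were lower after ATO by 1.5-fold or more, and none was higher by that much. These were the ligands TGFB2 and BMP4 and both inhibitory SMADs, of which SMAD7 had only a bound that rests on a dim reading. INHBA, ID2 and ID3, with values below control, and TGFB1 and ID1, with values above it, stayed within 1.5-fold. In LNCaP cells, all 5 ligands were not well above background on either array, and the inhibitory SMADs and the ID genes were at most 1.06-fold from control. Of all 13815 genes with a ratio or a bound in PC3, 10.8% were lower and 7.54% were higher by 1.5-fold or more. Among the 10 genes, 9 had such a value. The genes were chosen with earlier results of these data known, so their counts beside these shares are a description. With probes in a bright local background on any array left out, BMP4 alone of the 4 remained, as the TGFB2, SMAD6 and SMAD7 spots each lay in one on at least 1 array. For SMAD6 this was the LNCaP ATO array alone. Its local backgrounds of 114 units (PC3 control) and 87 units (PC3 ATO) lay under those arrays' limits of 120 and 117 units. In LNCaP, 2.72% of 13739 genes were higher and 2.05% were lower, against 0 of the 5 genes that had a value.

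**Figure D1:**
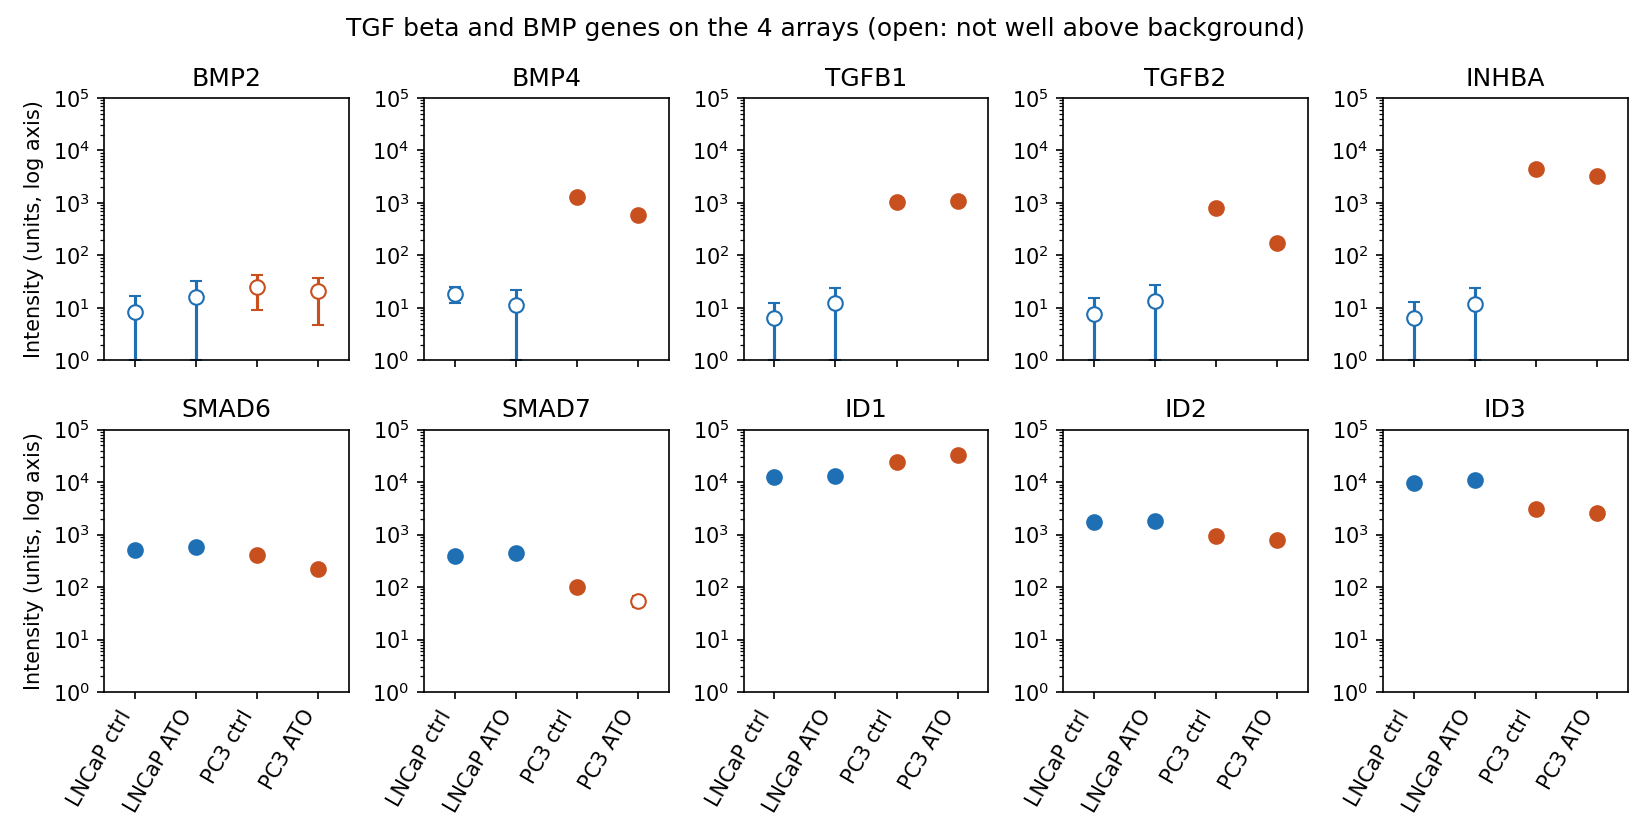
Processed intensity (scanner units, log axis) of each gene on the 4 arrays, LNCaP in blue and PC3 in orange. Filled points were well above background and open points were not, and bars are the scanner software's error estimate, cut at 1 unit. The ligands BMP4, TGFB1, TGFB2 and INHBA have filled points in PC3 only, while ID1, ID2, ID3 and SMAD6 are filled on all 4 arrays.

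TGFB2, a secreted TGF beta isoform, read 802 units in PC3 control cells and 176 units in PC3 ATO cells. In LNCaP it read 7.81 units without and 13.6 units with ATO, neither well above background. The PC3 values gave a log2 ratio of -2.16 ± 0.24 (software error, 1 spot), or 4.47-fold lower after ATO. Of the 12513 genes measured on both PC3 arrays, 5 had a lower ratio. In bulk RNA, fewer cells expressing a gene and less of its RNA per cell cannot be told apart. The local background around this spot on the PC3 control array was 241 units against a median of 89 units over that array, and its mean signal before background subtraction was 856 units. On the PC3 ATO array the mean signal was 268 units in a local background of 92 units. With the local background subtracted by normexp and an offset of 50 units added, the log2 ratio was -1.55. The offset by itself shrinks the ratios of dim probes, so this shift is not that of the local background alone.

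BMP4, a BMP ligand, read 1323 units in PC3 control cells and 590 units in PC3 ATO cells, in local backgrounds of 94 and 91 units, close to the medians of 89 and 90 units over those arrays. It read 18.5 and 11.2 units in LNCaP control and ATO cells, which were not well above background. The PC3 log2 ratio was -1.14 ± 0.21, or 2.20-fold lower after ATO, and 157 of the 12513 genes had a lower ratio. Over 12 ways of processing the arrays, this ratio ran from -1.21 to -0.97, and BMP4 was past 1.5-fold in all of them. Some of these could not change the value of its single spot. Dropping the filter on dim probes, the median over probes and leaving out bright local backgrounds all gave -1.14.

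INHBA encodes the beta A subunit of activin A and of inhibin A. Its 10 spots averaged 4471 ± 225 units in PC3 control cells and 3245 ± 147 units in PC3 ATO cells (SD over spots). Before scaling, the spots ran from 4114 to 4820 units in control and from 2991 to 3461 units with ATO. Spots are copies of a probe and no replicates. How many other probes with 10 spots had ranges as far apart was not counted, so these ranges are a description. The scaled log2 ratio was -0.44 ± 0.08 (SD over 10 spots, -0.55 to -0.31), or 1.35-fold lower, and fell short of 1.5-fold. In PC3, 1677 of 12513 genes had a lower ratio than INHBA. On the PC3 ATO array 3 of the 10 INHBA spots lay in a bright local background, as did 1 on the PC3 control array. TGFB1, the TGF beta isoform most widely expressed in human tissues, averaged 1063 ± 69.7 units in PC3 control cells and 1114 ± 49.5 units in PC3 ATO cells. Its 10 spots ran from 960 to 1173 units in control and from 1044 to 1185 units with ATO. Its log2 ratio was 0.10 ± 0.08 (SD over 10 spots, -0.06 to 0.26), with single spots on either side of 0. In LNCaP, INHBA averaged 6.42 units without and 12.0 units with ATO, and TGFB1 averaged 6.35 and 12.2 units, none well above background.

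**Figure D2:**
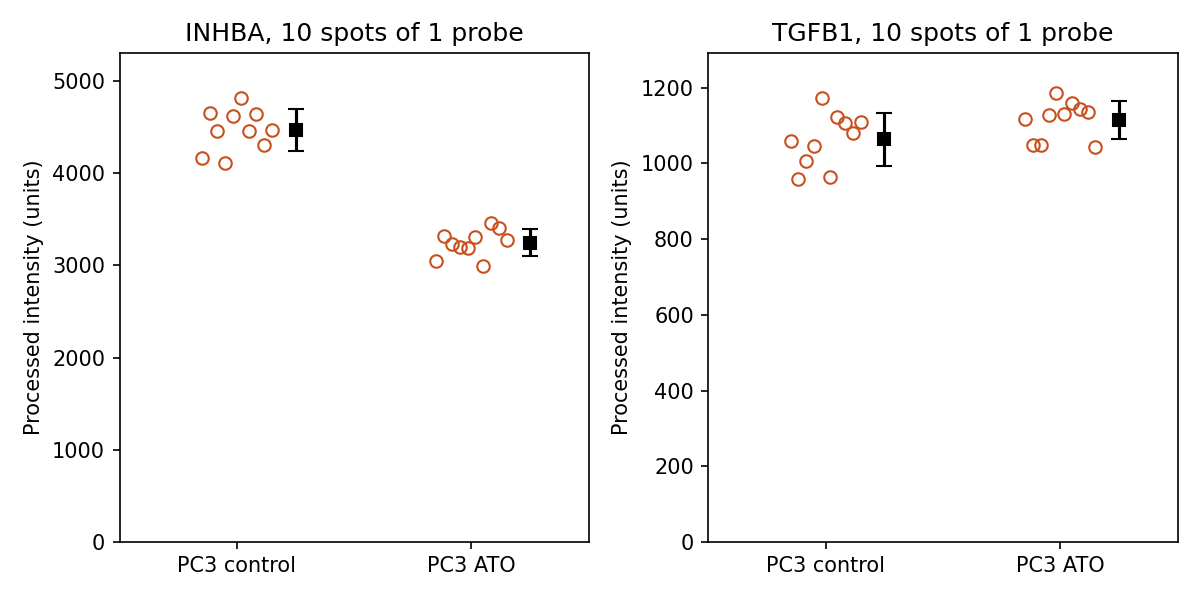
Processed intensity (scanner units, axis from 0) of the 10 spots that carry the INHBA probe and the 10 that carry the TGFB1 probe on the PC3 control and PC3 ATO arrays. Circles are single spots and squares their mean with the SD over spots. INHBA spots are lower on the ATO array, by less than 1.5-fold on average. Spots are copies of a probe and no replicates.

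BMP2, a ligand close to BMP4 in sequence, was not well above background on any array. Its probe read 8.55 and 16.1 units in LNCaP control and ATO cells, and 25.6 and 20.9 units in PC3 control and ATO cells. No ratio was taken for it.

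SMAD6, the inhibitory SMAD that acts mainly on the BMP branch, was measured on all 4 arrays. It read 509 units in LNCaP control cells, 584 units in LNCaP ATO cells, 414 units in PC3 control cells and 224 units in PC3 ATO cells. The PC3 ATO array was thus the lowest of the 4. SMAD6 had a log2 ratio of ATO over control of 0.09 ± 0.21 in LNCaP and of -0.86 ± 0.23 in PC3, the latter 1.82-fold lower, with 398 of 12513 genes lower still. The PC3 ratio minus the LNCaP ratio was -0.95, a difference that could not be tested with 1 array per group. On the LNCaP ATO array the SMAD6 spot lay in a bright local background of 164 units. SMAD7, which inhibits both branches at the receptor, read 388 units in LNCaP control cells, 446 units in LNCaP ATO cells and 101 units in PC3 control cells. In PC3 ATO cells its probe read 54.8 units and was not well above background. Its log2 ratio in LNCaP was 0.09 ± 0.21. In PC3 its reading was 1.82-fold lower after ATO, with software errors of 15.1 units (control) and 12.45 units (ATO). Where a dim reading lies above the lowest signal that counted as measured, the bound is the ratio of the readings. The value of 1.82 is such a ratio, so a smaller fall, also one below 1.5-fold, is not excluded. The mean signal of the SMAD7 spot before background subtraction was nearly the same on both PC3 arrays, 240 units in a local background of 102 and 237 units in a local background of 134. With normexp and its offset of 50 units the bound came to 1.21-fold, short of 1.5-fold. The parts of the local background and of the offset in this result were not tested further.

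The ID genes encode helix-loop-helix proteins without a DNA-binding domain, which hold basic helix-loop-helix transcription factors away from DNA. ID1 read 12254 and 12819 units in LNCaP control and ATO cells, and 23747 and 33431 units in PC3 control and ATO cells. ID1 thus had log2 ratios of -0.04 ± 0.20 for LNCaP and of 0.52 ± 0.20 for PC3, the latter 1.43-fold higher, and 1068 of 12513 genes had a higher ratio in PC3. Scaled to the 50th percentile of each array, which moved the median of all genes in PC3 from -0.01 to 0.16, ID1 reached 0.69 in PC3 and passed 1.5-fold. Its LNCaP ratio changed sign under quantile normalization and under spike-in scaling. ID2 read 1754 and 1835 units in LNCaP control and ATO cells, and 949 and 787 units in PC3 control and ATO cells. The log2 ratio of ID2 was -0.24 ± 0.21 in PC3 and -0.04 ± 0.20 in LNCaP, where the sign turned under spike-in scaling. The other ID2 probe read 461 and 420 units in PC3, a log2 ratio of -0.11, and gave -0.05 in LNCaP. ID3 read 9690 and 10839 units in LNCaP control and ATO cells, and 3049 and 2546 units in PC3 control and ATO cells, for log2 ratios of 0.05 ± 0.20 and -0.23 ± 0.20. Among the ID genes, the PC3 ratio minus the LNCaP ratio was 0.56 for ID1, -0.20 for ID2 and -0.29 for ID3, again untested.

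**Figure D3:**
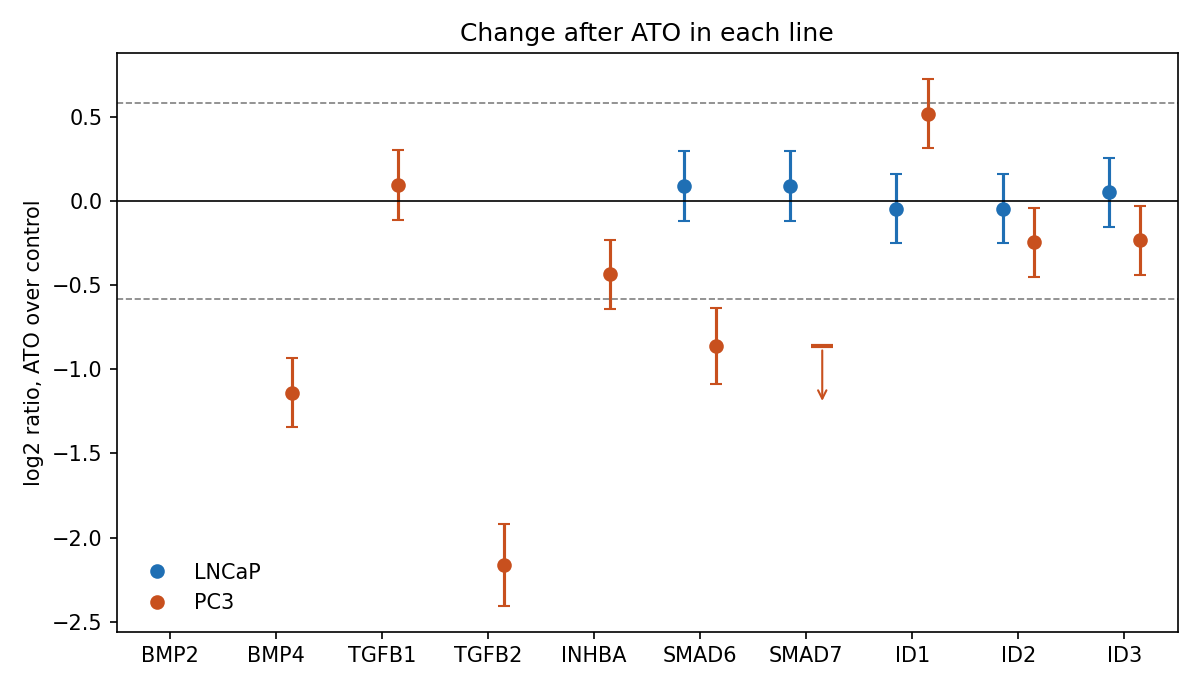
Log2 ratio of ATO over control for each gene in LNCaP (blue) and PC3 (orange), with the scanner software's error as bars and dashed lines at 1.5-fold. The bar with an arrow is the bound for SMAD7 in PC3, which is the ratio to a dim reading and no strict limit. No symbol is drawn where both arrays were not well above background. BMP4, TGFB2 and SMAD6 lie below the lower line in PC3, and all LNCaP points lie within 0.09 of 0.

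The 8 genes measured on both PC3 arrays had a median log2 ratio of -0.34, against -0.01 over all 12513 genes, and 6 of the 8 were below 0. In LNCaP the 5 measured genes had a median of 0.05, against 0.00 over all 12236 genes. The genes share a pathway and the same pair of arrays and are not replicates of the treatment. They were also not chosen blind to these data.

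**Figure D4:**
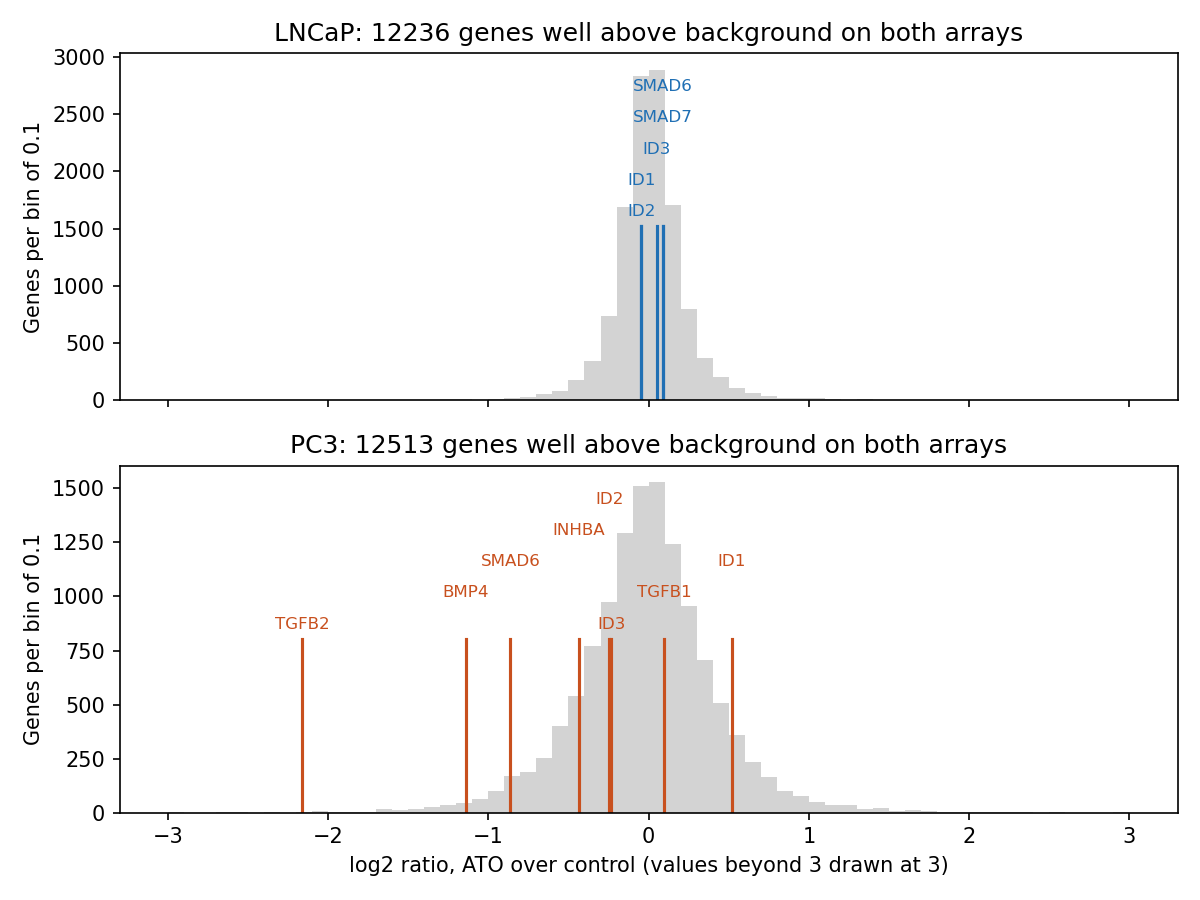
Histograms of the log2 ratio of ATO over control (bins of 0.1) for all genes well above background on both arrays, 12236 in LNCaP and 12513 in PC3, with vertical lines at the genes described. TGFB2, BMP4 and SMAD6 stand in the lower tail in PC3, and the LNCaP lines stand in the central peak.

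The additive limma model, with line and treatment as terms over all 4 arrays, asks for a change common to both lines and has 1 residual degree of freedom. Its p-values rest on 4 single samples. None of 11902 genes passed an adjusted p of 0.05 for ATO, which is 0% of those tested, and 559 had an unadjusted p under 0.05. The 5 genes tested were SMAD6, SMAD7, ID1, ID2 and ID3, with limma adjusted p-values from 0.766 to 0.871, and none had an unadjusted p under 0.05. SMAD6 had a common log2 difference of -0.39 ± 0.28 (SE, limma adjusted p = 0.766). The ligands were left out of this fit because they were not well above background in LNCaP.

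The lines themselves differed in these genes before treatment. Without ATO, INHBA was at least 139-fold, BMP4 at least 41.2-fold, TGFB1 at least 33.0-fold and TGFB2 at least 24.9-fold higher in PC3 than in LNCaP. SMAD7, ID3 and ID2 were lower in PC3, by log2 ratios of -2.17 ± 0.26, -1.90 ± 0.20 and -1.12 ± 0.21, with -1.06 from the second ID2 probe. SMAD6 at -0.53 ± 0.21 and ID1 at 0.72 ± 0.20 stayed within 2-fold. Thus 4 of 9 genes were higher and 3 were lower by 2-fold or more, against 20.8% higher and 18.8% lower of 15237 genes with a value. The 4 higher genes were measured in PC3 only and their direction was fixed by that, so the count is a description. ID2 came under 2-fold with spike-in scaling (-0.62), cyclic loess (-0.98) and the percentile over probes measured on all arrays (-0.98). ID1 passed it with spike-in scaling (1.22) and SMAD6 with the 50th percentile (-1.01). After ATO, the bounds for the ligands were lower: at least 55.4-fold for INHBA, 19.0-fold for TGFB1, 10.1-fold for BMP4 and 3.01-fold for TGFB2. SMAD7 read 8.71-fold lower in PC3 after ATO, a ratio that rests on its dim PC3 reading. The log2 ratios of SMAD6, ID1, ID2 and ID3 were -1.48, 1.29, -1.32 and -2.19. Each ligand bound also moves with the lowest level that counted as measured on the LNCaP array, so the bounds before and after ATO were not compared by a test.

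Over both treatments, limma tested 13733 genes between the lines and called 25.9% higher and 32.7% lower in PC3. These shares include genes that entered the fit only through the line in which they were high. That holds for the 4 ligands, which entered through PC3 alone, and for SMAD7, which entered through LNCaP, so their calls are not given. Over both treatments INHBA was at least 87.7-fold, TGFB1 at least 25.1-fold, BMP4 at least 20.4-fold and TGFB2 at least 8.66-fold higher in PC3. Of the 4 genes measured on all 4 arrays, ID3 was lower in PC3 by a log2 difference of -2.04 ± 0.16 (SE, limma adjusted p = 0.00349). ID2 was lower by -1.22 ± 0.15 (limma adjusted p = 0.00826), a call lost with no filter on dim probes. ID1 was higher by 1.003 ± 0.21 (limma adjusted p = 0.0256), a call lost under scaling to the 50th percentile and with no filter on dim probes, over a range of adjusted p from 0.00361 to 0.112. SMAD6 at -1.01 ± 0.29 missed the threshold (limma adjusted p = 0.0571) and passed it under 4 of the 11 alternatives that tested it. On simulated data this model made more false calls than its threshold allows, so calls near 0.05 are weak. In this fit the residual is the difference between the lines in their response to ATO, so a gene that responded to ATO in 1 line carries that response in its error.

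The 109 other genes of the pathway, listed by role, were examined in the same way and were all on the array (KLF10 was also listed under its older symbol, TIEG1). In PC3, 9 of 64 with a value were higher and 18 were lower by 1.5-fold or more, with a median log2 ratio of -0.13 over the 54 measured on both arrays. In LNCaP, 2 of 57 were higher and 2 were lower, with a median of 0.07 over the 45 measured on both arrays. The 2 lower were RUNX2 and AMH, by at least 21.4-fold and 3.92-fold, neither well above background on the LNCaP ATO array. The 2 higher were GDF15, by 1.91-fold, and GREM1, by at least 2.90-fold from a probe in a bright local background on at least 1 array. RUNX2 and GREM1 each have another probe, whose values are not given. The PC3 counts stand beside the 7.54% and 10.8% of all genes in PC3 given above. In limma, 0 of 45 passed for a common ATO effect, and 3 had an unadjusted p under 0.05.

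Among other ligands, 1 of 9 with a value was higher and 3 were lower in PC3. GDF15, a stress-induced ligand distant from the TGF betas, read 8812 and 18145 units in LNCaP control and ATO cells, and 3208 and 11177 units in PC3 control and ATO cells. GDF15 was higher after ATO in both lines, by log2 ratios of 0.93 (LNCaP) and 1.83 (PC3). INHBB, which encodes the beta B subunit of activin B, read 15512 units in PC3 control cells and 6169 units in PC3 ATO cells, a log2 ratio of -1.30 from a probe in a bright local background on at least 1 array. Among receptors and co-receptors, 1 of 8 was higher and 2 were lower in PC3. The type I receptor ACVR1 had a log2 ratio of 0.64, with 0.32 from its second probe. The BMP co-receptor RGMB had -0.79, and the BMP type I receptor BMPR1A had -0.63, with -0.62 and -0.37 from its other probes. None of the 5 signal transducing SMADs with a value in PC3 passed 1.5-fold in either direction, and their median log2 ratio was -0.06.

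Among secreted antagonists and latency proteins, 4 of 13 were lower in PC3 and none was higher, and the median log2 ratio was -0.33. LTBP2, of the latent TGF beta binding protein family, had -1.37, reading 352 units in control and 134 units with ATO. THBS1, thrombospondin 1, which can activate latent TGF beta, read 21802 and 9063 units, a log2 ratio of -1.24, with -0.87 from its second probe. NOG, the BMP antagonist noggin, read 783 and 417 units, a log2 ratio of -0.88. Among intracellular regulators, 2 of 12 were higher and 4 were lower. The transcriptional corepressors TGIF1 and TGIF2 went opposite ways, at 0.63 and -1.26. PMEPA1, a TGF beta induced inhibitor of SMAD signalling, had -0.95 (second probe -0.99), and the ubiquitin ligase NEDD4L had -0.83 (other probes -0.94 and -0.84). The SMAD phosphatase PPM1A had 0.69. The spots of TGIF2, PPM1A and BMPR1A lay in a bright local background on at least 1 array.

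Among the target genes, 5 of 21 with a value were higher and 7 were lower in PC3, a list that also holds SMAD6, SMAD7, LTBP2 and PMEPA1. CTGF, a matrix-associated growth regulator, read 433 units in PC3 control cells and 66.6 units in PC3 ATO cells. Its log2 ratio was -2.67. TAGLN, an actin-binding protein of smooth muscle, had -1.13, with -0.42 from its second probe. CDKN2B and CDKN1A, the cyclin-dependent kinase inhibitors p15 and p21, had 2.37 and 1.29, and HEY1, a transcriptional repressor, had 1.48. CDKN2B read 53.1 and 270 units in PC3 control and ATO cells, and its log2 ratio ran from 1.30 to 2.70 over the settings tried. The targets thus did not go one way together.

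**Figure D5:**
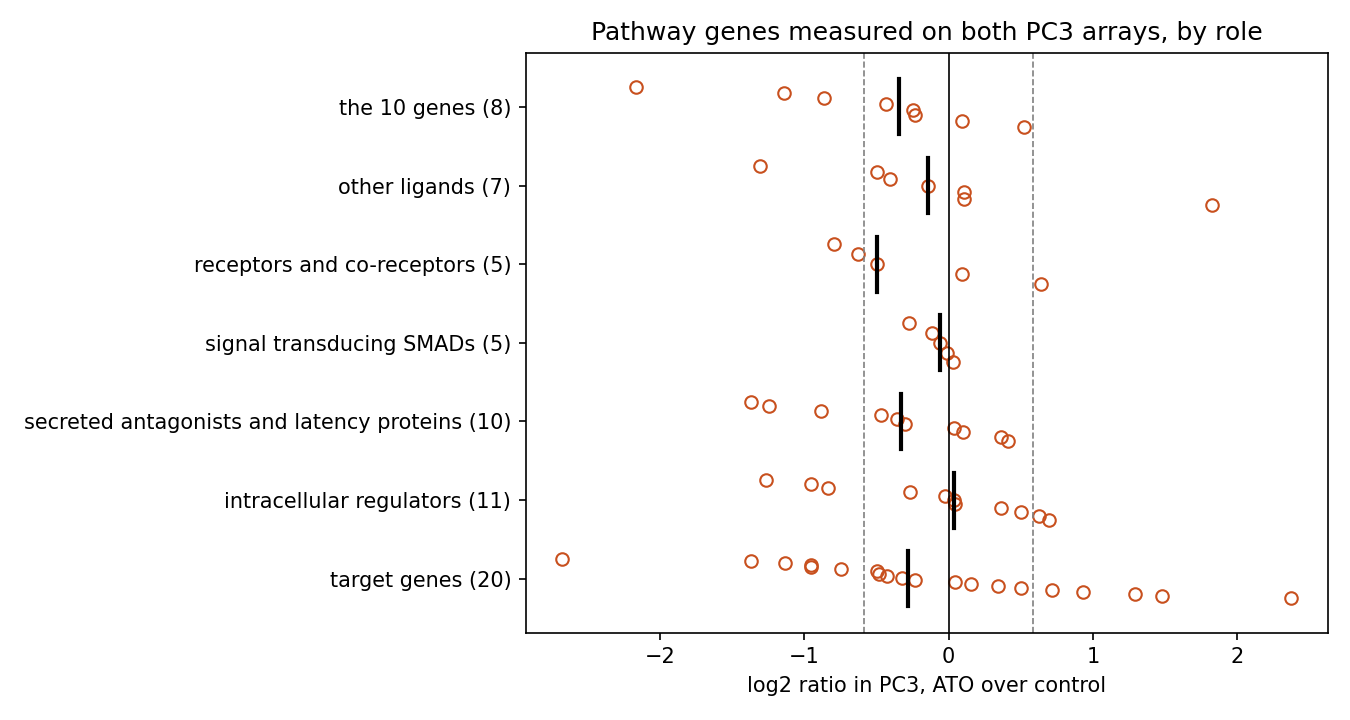
Log2 ratio of ATO over control in PC3 for pathway genes measured on both arrays, by role, with the number of genes in parentheses. Circles are genes, black bars list medians and dashed lines 1.5-fold. The medians run from -0.49 for receptors and co-receptors to 0.04 for intracellular regulators, and TGFB2 and CTGF are the circles left of -2.

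Promoters of 9 of the 10 genes were found in the RefSeq table (GRCh38.p14), in 13 windows of 250 bases before a transcript start. BMP2 had no entry. Both strands were searched for the SMAD core CAGAC, in 38% of 35116 such windows over all genes, for the BMP SMAD element GGCGCC, in 16.4%, and for the TEAD site GGAATG, in 11.9%. The SMAD palindrome GTCTAGAC, which holds no CAGAC, was not among the planned motifs and was added later. It stands in 64 windows, or 0.182%, a share that does not measure how unexpected a match is for a motif added in this way. The windows of TGFB2 (chr1:218345086-218345335) and SMAD6 (chr15:66701986-66702235), both on the plus strand, are shown as those of a ligand and an inhibitory SMAD that were lower in PC3, with motif matches in capitals.
TGFB2: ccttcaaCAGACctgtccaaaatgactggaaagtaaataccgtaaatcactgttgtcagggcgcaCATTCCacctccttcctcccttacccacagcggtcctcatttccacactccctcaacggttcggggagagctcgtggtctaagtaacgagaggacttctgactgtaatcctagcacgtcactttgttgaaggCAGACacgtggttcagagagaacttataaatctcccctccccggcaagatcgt
SMAD6: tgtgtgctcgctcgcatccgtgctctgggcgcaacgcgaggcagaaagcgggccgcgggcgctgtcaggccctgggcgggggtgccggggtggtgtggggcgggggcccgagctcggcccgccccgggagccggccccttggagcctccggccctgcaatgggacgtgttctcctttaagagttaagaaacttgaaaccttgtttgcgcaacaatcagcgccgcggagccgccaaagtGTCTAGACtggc
The TGFB2 window held the SMAD core at 243 and 53 bases before the start and the TEAD site, on the minus strand, at 185 bases. The SMAD6 window held the palindrome 12 bases before the start and no separate core. For BMP4, 2 of its windows held 1 SMAD core each, at 46 and 181 bases before the start, the latter with a BMP SMAD element at 232 bases. For SMAD7, 1 window held cores at 217 and 128 bases and another held 1 at 193 bases. ID3 had 1 core at 147 bases, and the windows of ID1, ID2, INHBA and TGFB1 held none of these letters. Sequence outside these windows of 250 bases was not searched, so a window without a match does not show that a gene lacks such elements. These matches describe the sequence alone, and no binding was measured.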

How the data were processed

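Total RNA of each of the 4 groups was labelled by the study and read on 1 single-colour Agilent array. The authors deposited the scanner output of each array (Agilent Feature Extraction 9.5.3.1 per the file headers, hg18 array design), whose intensity columns hold background-subtracted processed signals in linear units, and a table of ratios. These ratios, as deposited, fit the processed signal over the array's 75th percentile by their values, on a linear scale, and served only as an alternative (the study's methods name GeneSpring GX). No replicates exist, so the number of arrays limits the precision.

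Log2 intensities were scaled to the 75th percentile of gene spots. Control spots and outlier spots were left out, spots of a probe were averaged, and a gene was taken by its brightest probe. A probe was measured if more than 50% of its spots were well above background. Ratios were called at 1.5-fold (ATO) or 2-fold (lines). A bound set the brighter value against the higher of the dim value and the lowest signal well above background on the other array. Where the dim value was the higher, as for SMAD7, the bound is the ratio of the readings and carries their error. Line plus treatment was fitted with limma 3.58.1 in R 4.3.3 with Benjamini-Hochberg adjustment over all genes at 0.05, after a test on simulated data, in which it missed many of the smaller changes and made more false calls than that threshold allows. Text and figures used Python 3.11.15. Symbols are those of the array design. Some of the marker and sterol genes examined are not reported here.

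The 10 genes and all lists were chosen with earlier results of these data known. Besides the 10 genes, the text names markers, sterol genes and, per list and line, up to 3 genes with the highest and 3 with the lowest ratio past 1.5-fold and measured on both arrays. Pathway genes past 1.5-fold in LNCaP by a bound only, and FST and TGFBR2 between the lines, are named as well. Alternatives changed the scaling, background correction, dim-probe filter, outlier spots, probe summary, threshold and prior, or left out probes in a local background over the array's median plus 3 scaled MADs. The background correction was normexp with an offset of 50 units.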

Additional observations from a re-analysis of the deposited data

Results flagged for a closer look

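The log2 ratios of ATO over control had opposite signs in the lines for 3 genes measured on all 4 arrays. SMAD6 was at -0.8625 in PC3 and 0.0892 in LNCaP, ID1 at 0.5199 and -0.0444, and ID3 at -0.2338 and 0.0522. Only SMAD6 in PC3 was past 1.5-fold. The LNCaP ratios were all smaller than the software's error on them, and that of ID1 changed sign under quantile normalization and spike-in scaling. The differences between the lines were not tested, since each ratio rests on 1 array per group.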

How the results depend on the processing

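Among the values that answer a comparison, 60 alternative values stayed on their side of the threshold or, for counts, within 1.5 times, and 6 did not. Counts that stayed within 1.5 times still moved: under other scalings and normexp, the genes past 1.5-fold in PC3 ran from 3 to 5, those past 2-fold between control arrays from 6 to 8 and the other pathway genes from 22 to 28, and a count of 7 under spike-in scaling holds ID1 in place of ID2. With probes in a bright local background left out, the genes lower in PC3 after ATO went from 4 to 1 (BMP4), those past 2-fold between the control arrays from 7 to 4, and those called by limma between the lines from 8 to 5, of which the ligands and SMAD7 had entered through 1 line only. Fewer genes were tested there, 5 in place of 9 in limma, and SMAD6 was left out for its LNCaP ATO spot alone. At 2-fold, 2 genes (BMP4 and TGFB2) remained lower in PC3, and the other pathway genes past the threshold there went from 27 to 13. With no filter on dim probes, 5 genes passed 1.5-fold in LNCaP in place of 0, all below background. No value changed sign among those called. For named genes and list medians, 193 alternative values stayed and 58 moved by more than the technical spread. The ATO ratios in PC3 ran from -2.23 to -1.55 for TGFB2 and from -0.93 to -0.69 for SMAD6. Scaling to the 50th percentile moved the median log2 ratio of all genes to 0.16 in PC3 and to -0.58 between control arrays, and spike-in scaling moved it to 0.16 in LNCaP and 0.39 between control arrays. ID1 missed the limma threshold between the lines under the 50th percentile, and ID1 and ID2 missed it with no filter on dim probes. Over 12 or 13 settings, limma adjusted p-values for ATO ran from 0.717 to 1 for the 5 genes measured in both lines (with no filter on dim probes, the lowest of the 10 was 0.671), and for SMAD6 between the lines from 0.00758 to 0.161. No paired analysis was possible because each group is 1 array and the labels carry no replicate numbers. Leaving out a line or a treatment leaves no residual degrees of freedom.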

Other observations

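Between the untreated lines, 44 of the other pathway genes were measured on both arrays. Of these, 13 were higher and 5 were lower in PC3 by 2-fold or more, where 13.6% of all 11775 such genes were higher and 18.3% lower. Among target genes, 5 of 15 were higher and 3 lower, and among secreted antagonists and latency proteins 3 of 5 were higher and 0 lower. THBS1 had a log2 ratio of 5.77 and INHBB of 5.71, the latter from a probe in a bright local background on at least 1 array. RUNX2, CDKN1A and GDF15 were lower in PC3, at -3.40, -1.76 and -1.69, and PMEPA1 was at 0.00. NOG, CTGF and LTBP2 were measured in PC3 only, at least 24.4-fold, 13.5-fold and 10.9-fold higher. Larger bounds of this kind were those of FST, at least 467-fold, and of the receptor gene TGFBR2, at least 149-fold. With bounds counted, 30 of 75 other pathway genes were higher in PC3 and 9 were lower, against 20.8% and 18.8% of all genes. With 1 array per line these values carry no test.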
